A study of Mus musculus with 32 samples.

Results

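MHC class I antigen presentation was followed through 10 genes, taken by symbol from the deposited table, which lists 20560 genes. They are the heavy chains H2-K1 and H2-D1, the light chain B2m, the peptide transporter Tap1 and Tap2, its partner Tapbp, the immunoproteasome subunits Psmb8, Psmb9 and Psmb10, and the transactivator Nlrc5. All 10 were found, and all 10 passed the filter on low values in every comparison. RNA was sequenced in 32 libraries of 3T3-L1, an established mouse fibroblast line that becomes adipocyte-like in culture after a hormone cocktail. The study asked how knockdown of Zbtb9, a zinc finger and BTB domain gene, alters expression during this process. At each of days 0, 3, 7 and 11 there were 4 libraries with a scrambled control shRNA (genotype given as WT), 2 with shRNA 1 and 2 with shRNA 2 against Zbtb9. Cells were induced at day 0, after reaching confluence, with 167 nM insulin, the phosphodiesterase inhibitor 3-isobutyl-1-methylxanthine at 0.5 mM and the glucocorticoid dexamethasone at 1 µM. They had 167 nM insulin alone from day 3 and plain medium from day 7 to day 11. Cells are called preadipocytes at day 0, premature adipocytes at days 3 and 7, and mature adipocytes at day 11. The labels number biological replicates without saying whether they were separate cultures, so the tests measure the spread between these libraries, which may be technical.

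MHC class I molecules carry short peptides from inside the cell to its surface, where CD8 T cells read them. Proteasomes cut the peptides, TAP carries them into the endoplasmic reticulum, tapasin holds the empty class I molecule next to TAP, and the loaded heavy chain leaves with beta-2-microglobulin. Interferons raise this machinery in most cell types, fibroblasts included, by way of STAT and IRF factors and of NLRC5, which acts with promoter-bound RFX, CREB and NF-Y proteins.

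In mouse genome GRCm38, 7 of the 10 genes lie on chromosome 17 within 1352 kb. Tapbp is at 33915899-33929292 and H2-K1 at 33996017-34000347. Psmb9 (34181987-34187764), Tap1 (34187553-34197225), Psmb8 (34197721-34201454) and Tap2 (34203527-34216321) sit side by side within 34.3 kb, and H2-D1 is at 35262730-35267499. B2m is on chromosome 2 at 122147686-122153083. Psmb10 (105935735-105938444) and Nlrc5 (94434356-94527272) are on chromosome 8. Psmb9 (minus strand) and Tap1 (plus strand) face away from each other. In the GENCODE M21 annotation, which gives these coordinates, they share 212 exon bases, while the RefSeq start sites used for the promoters lie 226 bases apart, at 34187330 and 34187556.

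The stretch just upstream of a class I gene holds the sites that class I regulators are known to bind, and these members moved together, so 3 of them are shown. The sequences are RefSeq promoters of GRCm38.p6, 5′ to 3′ on the gene's strand. They end at the base before the first annotated GENCODE base of the gene for H2-K1 (chr17:34000348-34000547, minus strand) and B2m (chr2:122147487-122147685, plus strand). The H2-D1 run is chr17:35262923-35262952, plus strand, which is upstream of the RefSeq start site (35263094) but inside the longer GENCODE gene, and the matching H2-K1 run is chr17:34000429-34000458, minus strand. Capitals mark a kB core, an ISRE core or a CCAAT box.
H2-K1 upstream: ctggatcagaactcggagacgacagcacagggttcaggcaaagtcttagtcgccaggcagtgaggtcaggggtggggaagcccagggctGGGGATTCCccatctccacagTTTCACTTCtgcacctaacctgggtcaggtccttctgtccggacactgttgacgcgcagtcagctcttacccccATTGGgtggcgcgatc
H2-K1 enhancer stretch: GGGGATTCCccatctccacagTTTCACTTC
H2-D1 enhancer stretch: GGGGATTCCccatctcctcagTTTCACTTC
B2m upstream: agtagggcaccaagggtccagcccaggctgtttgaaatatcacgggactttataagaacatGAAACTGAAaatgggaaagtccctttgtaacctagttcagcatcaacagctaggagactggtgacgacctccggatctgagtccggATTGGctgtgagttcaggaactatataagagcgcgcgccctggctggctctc

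The 30 bases of H2-K1 and H2-D1 differ by the single substitution A18T, with the H2-K1 base first and positions counted from the 5′ end of the run. Over the upstream stretches of these genes, 128 of 140 aligned bases (91.4%) were identical. Promoters of 8 members were in the sequence table, and each motif was searched on both strands of the 250 bases upstream in all 32851 promoters of it. The kB core GGGNNTTCC was in H2-K1 and H2-D1, and in 4.98% of all promoters. The ISRE core GAAANNGAA was in B2m (7.13% of all promoters). Its second form GAANNGAAA, searched after the sequences had been seen, was in H2-K1 and H2-D1 (6.31%). One stretch of bases can match both forms. The GAS core TTCNNNGAA was in Psmb8 (7.02%). A CCAAT box was in 6 of the 8 members (33.8% of all promoters) and TGACG, part of CREB sites and lower case above, in 5 of the 8 (17.8%). The CCAAT match of Psmb9 and that of Tap1 are the same bases between these genes, and so are their TGACG matches, so each is counted for both. These matches describe letters in a window, not binding.

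Library totals ran from 22280321 to 31073716 reads. At day 11 the control totals (26486034 to 31073716) were all above the knockdown totals (22839423 to 25511818), while at other days they overlapped. Zbtb9 itself had few reads, and 84.4% of its exon bases overlap Ggnbp1 on the same strand. Its mean in the knockdown libraries was 61.9%, 50.6%, 42.7% and 54.5% of control at days 0, 3, 7 and 11 (two-sided exact permutation p = 0.029, 0.114, 0.029 and 0.143, where 0.029 is the smallest p that 4 against 4 can give, and 0.057, 0.143, 0.057 and 0.143 after Benjamini-Hochberg adjustment over the days). In normalized reads at day 11 it stood at 12.1 to 20 in the controls, 8.17 and 19.3 in the libraries labelled shRNA 1 and 2.13 and 4.25 in those labelled shRNA 2. Replicate 2 of the libraries labelled shRNA 1 was thus as high as the controls, against its label. Summed adipocyte markers were higher in every knockdown library than in any control at each day, for example 47780 to 51870 normalized reads in the day 7 controls, 198400 to 203200 with shRNA 1 and 132000 to 158800 with shRNA 2. Lpl alone had 14593 to 79885 reads per library, so the day 0 sums (19720 to 20320 in the controls) rest largely on it. Adipoq, Plin1, Cidec, Cfd and Slc2a4 had 3 or fewer reads in 7 to 9 libraries, and Lep in 28. Of 14 markers of macrophages and other white blood cells, 9 were in the table. The pan-leukocyte marker Ptprc had 0 to 3 reads per library and was at 0 in 23 of 32, and Fcer1g, Cd8a and Cd79a likewise never passed 3. Itgam had 0 to 7, Csf1r 1 to 40, Lyz2 2 to 205, Cd68 9 to 506 and Cd14, which other cell types also express, 256 to 711. The list summed to 504 to 536.5 normalized reads in the day 7 controls, 357.2 to 468.7 with shRNA 1 and 449.1 to 506.6 with shRNA 2. At day 11 it summed to 720.3 to 835.3, 904.8 to 1058 and 947.3 to 968.1, so that it was lower or overlapping in the knockdown at day 7 and higher with both shRNAs at day 11. Its part in the class I results was not tested. In whole cultures, fewer cells of a type and less RNA per cell cannot be told apart.

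Levels are given as normalized reads (whole reads rebuilt from the deposited log2 values, divided by the library's size factor). Differences are log2 differences of the deposited values with their standard error (SE). A gene was called at an adjusted p under 0.05 in limma, adjusted over all genes tested. Deposited differences are drawn towards 0 for genes with few reads, so those of Psmb8, Psmb9 and Nlrc5 are understated most. Differences between genes in level are given only per kb of exon.

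In control cells at day 0, the light chain was the most abundant member per kb, and the inducible proteasome subunits Psmb8 and Psmb9, with Nlrc5, were the least. Mean normalized reads per kb in the day 0 controls were 36000 for B2m, 3770 for H2-D1, 3700 for Tapbp and 1310 for H2-K1. They were 780 for Psmb10, 331 for Tap2, 225 for Tap1, 38.5 for Psmb8, 25.2 for Nlrc5 and 21.8 for Psmb9. H2-K1 and H2-D1 transcripts are 88.4% identical over 1515 aligned bases, so reads may have been split between them. The 3T3-L1 alleles were not compared with the reference.

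From day 0 to day 3 of the control course all 10 members fell, where 38.2% of all genes tested were called lower, and every day 3 control was below every day 0 control in all 10 (35.5% of all genes). Mean reads at day 3 were lower by between 1.87-fold (Tap2) and 14.5-fold (Psmb8). B2m, the light chain common to all class I molecules, was at 31820, 28580, 29490 and 34010 normalized reads in the day 0 controls and at 5064, 5060, 5382 and 5323 in those of day 3. Its difference was -2.49 ± 0.09 (SE). Psmb8, the inducible subunit that replaces Psmb5, went from 154.1, 105.2, 129.5 and 131.8 to 11.6, 6.35, 8.37 and 9.57, which is close to the limit of counting. The other differences were -1.80 for H2-K1, -1.15 for H2-D1, -1.80 for Tap1, -0.85 for Tap2 and -1.63 for Tapbp. They were -2.28 for Psmb8, -1.61 for Psmb9, -1.98 for Psmb10 and -1.83 for Nlrc5 (adjusted p from 1.24e-22 to 5.71e-07 in limma). With libraries rescaled to equal totals the median of all genes tested shifted to -0.12 in this comparison, and all 10 members were still called lower. Summed preadipocyte and fibroblast markers went the same way in the controls, from 724600 to 761500 normalized reads at day 0 to 278900 to 306700 at day 3 and 583500 to 633900 at day 7, and their part in the class I course was not tested.

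From day 3 to day 7, when the cocktail had been replaced by insulin, the pathway came back. All 10 members rose (37.6% of all genes were called higher), by between 2.48-fold (Psmb10) and 18.3-fold (Psmb8) in mean reads, and every day 7 control was above every day 3 control (33.4% of all genes). H2-D1, a classical heavy chain, rose from 4247, 4226, 4488 and 4053 to 17940, 13150, 20630 and 19130. Tap1, the transporter subunit, rose from 313.5, 333.2, 332.8 and 315.7 to 1906, 1642, 2066 and 1718. Control replicate 2 was the lowest of its day 7 group in both, as in every member but Tap2. The differences were 2.25 for H2-K1, 1.97 for H2-D1, 2.53 for B2m, 2.35 for Tap1, 1.38 for Tap2 and 1.5 for Tapbp. They were 2.54 for Psmb8, 2.37 for Psmb9, 1.22 for Psmb10 and 1.75 for Nlrc5 (adjusted p from 2.99e-25 to 1.74e-09).

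Against day 0, the later levels differed from member to member. At day 7, 7 of the 10 were called, a share like that of all genes (69.1%): H2-K1 (0.45), H2-D1 (0.83), Tap1 (0.55), Tap2 (0.53) and Psmb9 (0.76) were higher, and Tapbp (-0.13) and Psmb10 (-0.76) were lower. The Tapbp call was lost in 5 of 26 alternatives (adjusted p up to 0.141). At day 11, 9 of the 10 were called against day 0 (64.6% of all genes), of which 8 were higher. H2-D1 (1.10) and Psmb8 (1.07) stood highest over day 0, and Psmb10 (-0.53), whose product replaces the constitutive subunit Psmb7, stayed lower. Tapbp, the peptide-loading partner, differed by 0.10 (adjusted p = 0.105). Between day 7 and day 11, 9 were called (55% of all genes). H2-K1 (0.41), B2m (0.48), Tap2 (0.15), Tapbp (0.23), Psmb8 (0.81), Psmb10 (0.23) and Nlrc5 (0.46) rose further, while Tap1 (-0.19) and Psmb9 (-0.31) fell. The Psmb9 call was lost in 15 of 26 alternatives, equal totals among them (adjusted p up to 0.248), that of Tap2 in 4 (up to 0.0818), and that of Tap1 in 2, without control replicate 3 of day 7 or of day 11. By their means, H2-K1, H2-D1, B2m, Tap2 and Psmb8 were ordered day 11, 7, 0, 3 from highest to lowest. Of these steps, day 7 against day 0 did not pass the test for B2m (0.04, adjusted p = 0.715, and -0.03 with equal totals) or Psmb8 (0.26, adjusted p = 0.0564), nor did day 11 against day 7 for H2-D1 (0.28, adjusted p = 0.0565). Tap1 and Psmb9 had their highest mean at day 7, and Psmb10 was highest at day 0. Day 3 was the lowest for all 10.

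**Figure D1:**
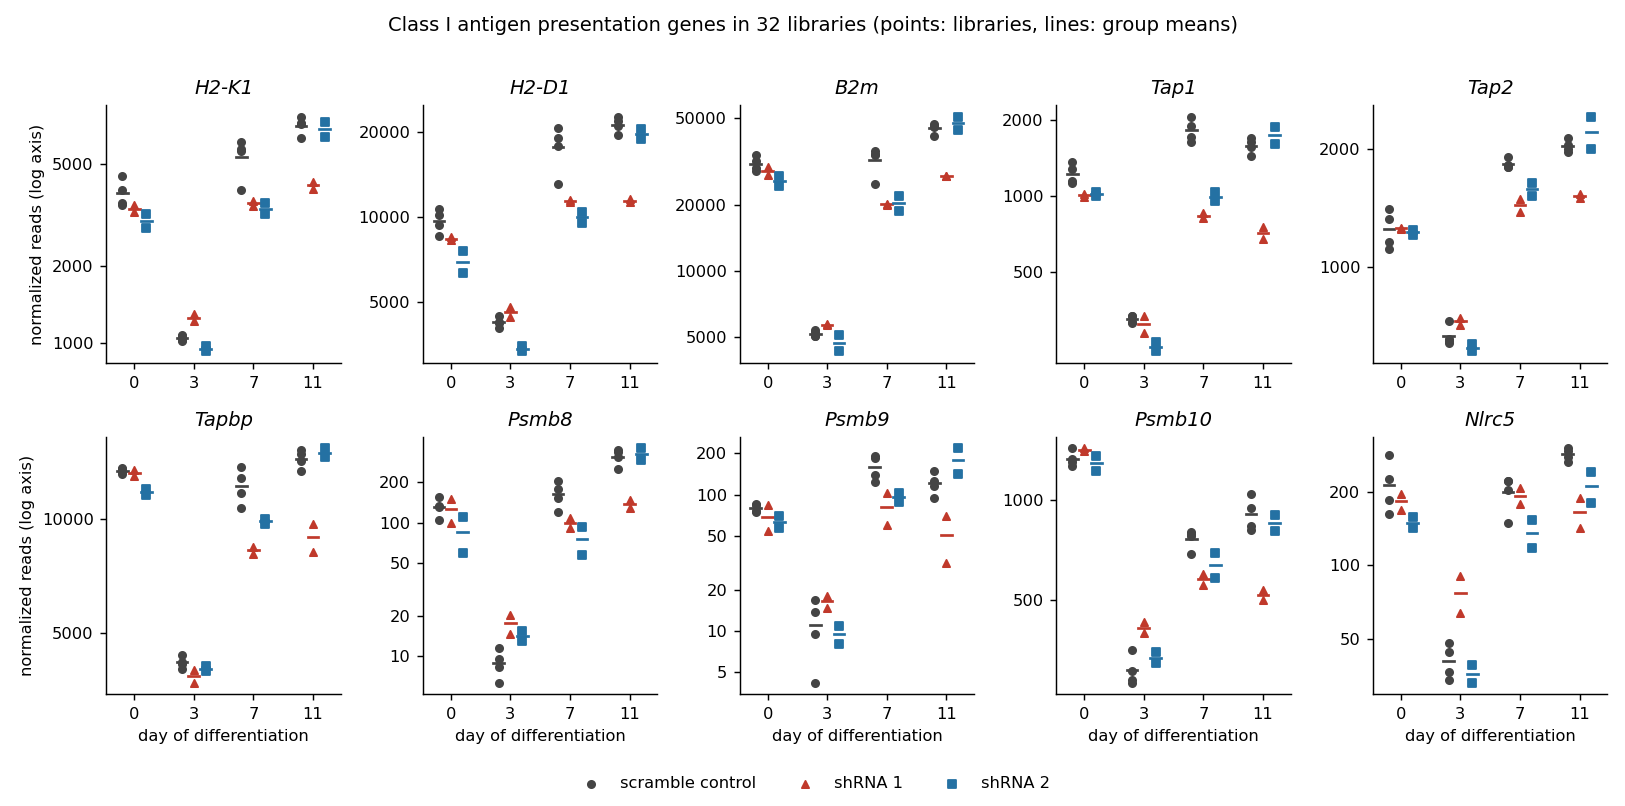
Normalized reads (log axis) of each of the 10 members in every library, by day, with controls as black circles, shRNA 1 as red triangles, shRNA 2 as blue squares and lines through group means. The controls of all 10 genes dip at day 3, the knockdown libraries lie below the controls at day 7 in 8 genes (not in Psmb10 and Nlrc5, which overlap), and at day 11 the shRNA 2 points meet the controls for every gene but Nlrc5, while the shRNA 1 points lie below them in all 10.

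At day 0, when the cocktail was added, 9 of the 10 differences between knockdown and control were below 0 (median -0.24, beside -0.01 over all genes), and 4 members had an unadjusted p under 0.05, beside 19.7% of all genes. Only Tap1 was called with both shRNAs pooled (-0.26 ± 0.06, adjusted p = 0.0494), where 2.44% of all genes were called lower, and leaving out any 1 of the 8 libraries ended that call. Its normalized reads were 1366, 1150, 1124 and 1281 in the controls, 1022 and 992.3 with shRNA 1 and 1037 and 1003 with shRNA 2, so that no knockdown library reached a control. The other 9 differences lay between -0.33 and 0.02. Against the same controls, Tap1 was lower with shRNA 1 alone (-0.27, adjusted p = 0.00117; 18.9% of all genes called lower). With shRNA 2, H2-D1 (-0.47, adjusted p = 0.041), Tap1 (-0.25, adjusted p = 0.00506) and Tapbp (-0.18, adjusted p = 0.000118) were lower (10.2% of all genes called lower), and 1 of these 3 calls was left without replicate 2 of shRNA 2. Tapbp was lower with shRNA 2 than with shRNA 1 (-0.16, adjusted p = 0.000895; 16.4% of all genes called lower). Summed preadipocyte and fibroblast markers were lower too, at 724600 to 761500 normalized reads in the day 0 controls. They were at 598500 to 624500 with shRNA 1 and 677600 to 683800 with shRNA 2. A list of MHC class II genes summed to 378 to 390.4 in the controls, 338.3 to 361.2 with shRNA 1 and 318.1 to 355.7 with shRNA 2. The part of either list in the class I differences was not tested.

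At day 3, at the low point of the pathway, limma called none of the 10 members with both shRNAs together, while 26.7% of all genes were called. At an unadjusted p under 0.05 there were 3 of the 10, beside 38.1% of all genes, and voom on the rebuilt reads called 0. The differences ran from -0.19 (Tap1) to 0.29 (Psmb8), with adjusted p from 0.061 to 0.975 in limma. Psmb8 had 12.99 to 20.44 normalized reads in the knockdown libraries and 6.35 to 11.57 in the controls, close to the limit of counting. Its mean reads were 1.77-fold those of the controls, and its deposited difference is understated at such counts. The 2 shRNAs parted at day 3. With shRNA 1, 5 members were higher (20.6% of all genes called higher): H2-K1 (0.25), H2-D1 (0.12), B2m (0.13), Psmb10 (0.39) and Nlrc5 (0.64, adjusted p = 0.000864). Tapbp was lower (-0.12, adjusted p = 0.0371; 18.7% of all genes called lower). These 6 calls became 3 without replicate 2 of shRNA 1, where H2-D1 was at 0.06 and Tapbp at -0.06. The calls of H2-D1 and B2m were each lost in 7 of 17 alternatives (adjusted p up to 0.482 and 0.385) and that of Tapbp in 6 (up to 0.493), with no filter and in 1 fit of all 32 libraries among them. Nlrc5, which switches on class I promoters, had 44.2, 33.9, 36.6 and 47.8 normalized reads in the day 3 controls, 90.9 and 63.5 with shRNA 1, and 39.0 and 32.9 with shRNA 2. Its shRNA 1 libraries were above every control and of its shRNA 2 libraries one lay among the controls and the other just under them. With shRNA 2, H2-D1 (-0.30, adjusted p = 2.24e-06), B2m (-0.14) and Tap1 (-0.33, adjusted p = 0.00734) were lower (14.5% of all genes called lower), with 1 call left without replicate 2 of shRNA 2, where B2m was at -0.01. The B2m call was lost in 6 of 17 alternatives (adjusted p up to 0.882). Tested against each other, shRNA 2 was below shRNA 1 for H2-K1 (-0.39), H2-D1 (-0.42, adjusted p = 1.26e-07), B2m (-0.27) and Nlrc5 (-0.75), where 8.94% of all genes were called lower. The size of the B2m gap rests on unlike shRNA 2 libraries, at 4322 and 5152 normalized reads beside 5679 and 5739 with shRNA 1.

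At day 7 the pathway was lower in the knockdown. Of the 10 members, 9 fell with both shRNAs pooled (22.6% of all genes called lower), to between 50% (Tap1) and 82.4% (Tap2) of the control reads, and Nlrc5 did not pass the test. For 8 members every knockdown library was below every control, which held for 20.9% of all genes, and the count of 9 calls was the same under all 19 alternatives run. The median difference of the members was -0.61, beside 0.01 over all genes tested.

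Both heavy chains and the light chain were among the 9. H2-K1 was at 5718, 3967, 6108 and 5614 normalized reads in the day 7 controls, at 3601 and 3441 with shRNA 1, and at 3512 and 3188 with shRNA 2 (-0.60 ± 0.11, adjusted p = 0.00148). H2-D1 was at 17940, 13150, 20630 and 19130 in the controls, 11470 and 11320 with shRNA 1 and 10480 and 9527 with shRNA 2 (-0.69 ± 0.13, adjusted p = 0.00149). B2m was at 33860, 24930, 35580 and 34170 in the controls, 20250 and 20130 with shRNA 1 and 22120 and 18810 with shRNA 2 (-0.63 ± 0.10, adjusted p = 0.000219). Each of the 4 knockdown libraries lay under even the lowest control, replicate 2, in these 3 genes. Together the 3 genes stood at 60.4% to 64.2% of control in mean reads.

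RNA of the genes for peptide transport and loading was lower by unequal amounts. Tap1 had the largest log2 difference of the 10 members, with 1906, 1642, 2066 and 1718 normalized reads in the controls, 855.5 and 816.7 with shRNA 1 and 1035 and 958.6 with shRNA 2 (-0.95 ± 0.08, adjusted p = 2.26e-07). Tap2, the other subunit of the same transporter, had 1799, 1816, 1905 and 1799 in the controls, 1493 and 1380 with shRNA 1 and 1517 and 1640 with shRNA 2 (-0.27 ± 0.06, adjusted p = 0.00115). Both subunits were separate from control in every library, Tap1 at 50% and Tap2 at 82.4% of the control mean. Other genes, mainly the antisense Gm15821, overlap 18.5% of the exon bases of Tap2. Tapbp, or tapasin, had 12860, 10690, 13720 and 11710 in the controls, 8448 and 8095 with shRNA 1 and 10030 and 9729 with shRNA 2 (-0.42 ± 0.08, adjusted p = 0.000862). It was the only member for which limma called a difference between the shRNAs at this day, shRNA 2 being 0.25 above shRNA 1 (adjusted p = 0.0404; 7.52% of all genes called higher). That call was absent with no filter, without trend and robust estimation, and in voom. Tapbp shares 29% of its exon bases with other genes, mainly the antisense Gm19412, and how strand was used in counting is not given in the sources used here.

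The inducible catalytic subunits of the proteasome fell too. Psmb8 had 153.5, 120.7, 202.9 and 177.8 normalized reads in the day 7 controls, 107.6 and 90.5 with shRNA 1 and 92.3 and 57.5 with shRNA 2 (-0.75 ± 0.16, adjusted p = 0.00129). Psmb9, which replaces Psmb6, had 191.9, 122.7, 185.5 and 138.6 in the controls, 102.5 and 60.3 with shRNA 1 and 102.8 and 87.7 with shRNA 2 (-0.67 ± 0.15, adjusted p = 0.00181). Psmb10 had 800, 686.6, 776.8 and 787.5 in the controls, 600.8 and 556.8 with shRNA 1 and 693.4 and 581.6 with shRNA 2 (-0.31 ± 0.08, adjusted p = 0.00354). Psmb8 and Psmb9 did not overlap control, while for Psmb10 replicate 1 of shRNA 2 was just above the lowest control. Psmb8 shares 14.7% of its exon bases with Gm20496. Nlrc5 had 222.4, 149.1, 222.4 and 204.4 in the controls, 208 and 178.7 with shRNA 1 and 117.5 and 152.9 with shRNA 2 (-0.25 ± 0.15, adjusted p = 0.184), and its groups overlapped.

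Each shRNA was also tested alone at day 7, against the same 4 controls. With shRNA 1, 9 members fell (24.3% of all genes called lower), from -0.33 for Tap2 to -1.07 for Tap1, with Nlrc5 at -0.03 (adjusted p = 0.884). With shRNA 2 all 10 fell (22% of all genes called lower), from -0.20 for Tap2 to -0.92 for Psmb8. Only 2 libraries stood behind each shRNA: the shRNA 1 count was 4 without its replicate 2, and the shRNA 2 count was 6 without its replicate 1 and 4 without its replicate 2. A lone library was then assumed to vary like the other groups. H2-K1 with either shRNA, and H2-D1 with shRNA 1, lost their calls when any 1 library of the day other than control replicate 2 was left out (7 of 17 alternatives, adjusted p up to 0.183). Summed preadipocyte and fibroblast markers moved in the same direction, from 583500 to 633900 normalized reads in the day 7 controls to 455500 to 514000 with shRNA 1 and 480400 to 495900 with shRNA 2. Adipocyte markers moved the opposite way, and the part of either in the class I result was not tested.

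**Figure D2:**
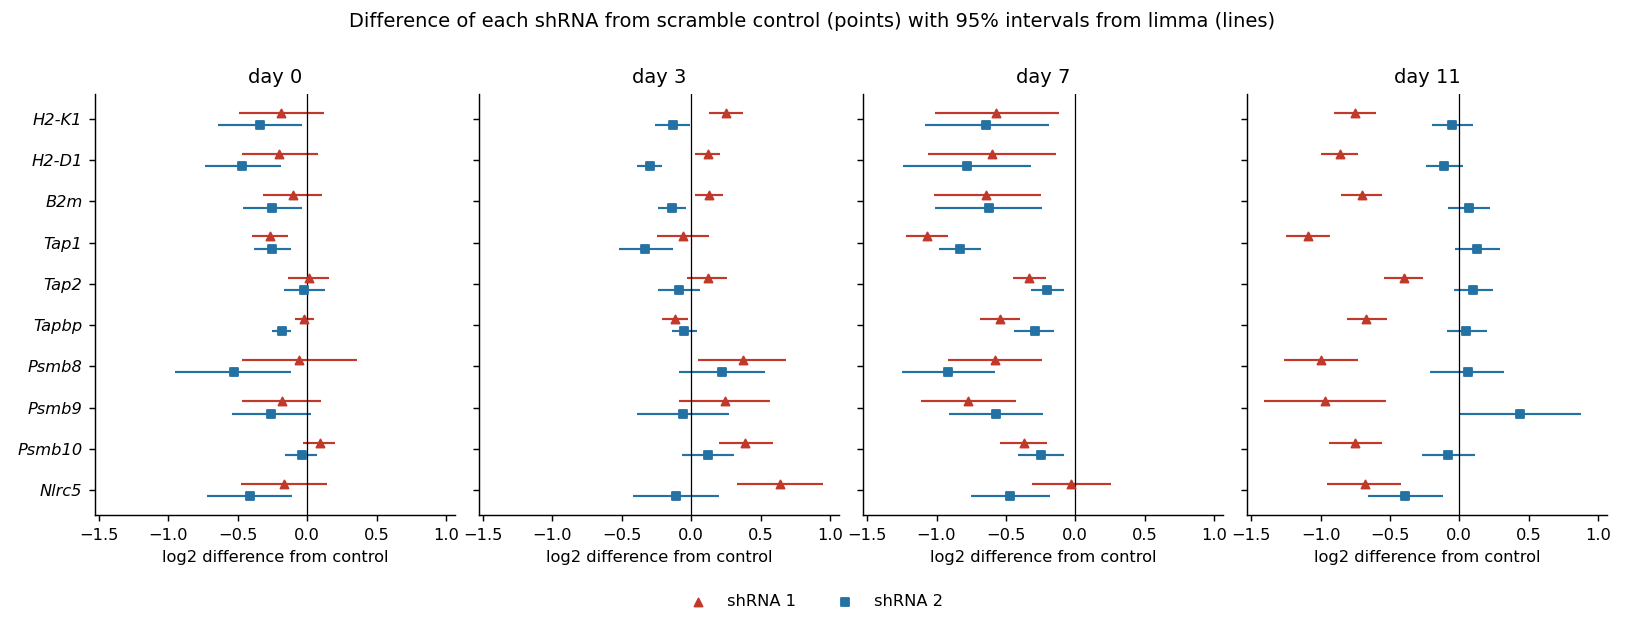
Log2 difference from control of each member for shRNA 1 (red) and shRNA 2 (blue), 1 panel per day, with limma 95% intervals. At day 7 both shRNAs lie below 0 for nearly all members, and at day 11 only the shRNA 1 values stay there while 9 of 10 shRNA 2 values lie close to or above 0.

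At day 11 the shRNAs gave different results. With both together only Nlrc5 was called (-0.54 ± 0.12, adjusted p = 0.00658; 16.2% of all genes called lower), and the other 9 had differences between -0.49 and -0.15 with adjusted p from 0.0917 to 0.653. With a replicate block 0 members were called, and 1652 of all genes against 4382 without it. Where the shRNAs were kept as separate groups, or all 32 libraries fitted in 12 groups, the spread between the shRNAs left the error term and 9 members were called lower, as were 24.2% and 26.5% of all genes. With shRNA 1 all 10 members fell (22.2% of all genes called lower), to between 41.8% (Psmb9) and 74.7% (Tap2) of the control reads. With shRNA 2 only Nlrc5 fell (19.4% of all genes called lower), to 73.8% of control, a call that was lost without its replicate 2 or without control replicate 1 or 3. The other 9 stood at 92.5% (H2-D1) to 148% (Psmb9). Tested directly, shRNA 2 was above shRNA 1 for 9 of the 10 (11.6% of all genes called higher), by 1.45-fold (Tap2) to 3.55-fold (Psmb9) in mean reads. All 9 of those had both shRNA 2 libraries above both shRNA 1 libraries, as did 28.6% of all genes.

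Tap1 had 1565, 1639, 1447 and 1696 normalized reads in the day 11 controls, 753.6 and 673.4 with shRNA 1 and 1880 and 1620 with shRNA 2. Its difference was -1.09 ± 0.08 with shRNA 1 (adjusted p = 5.35e-09) and 0.13 ± 0.08 with shRNA 2, for which the 95% interval ran from -0.03 to 0.29. The shRNAs differed by 1.23 (adjusted p = 6.41e-08). Both shRNA 1 libraries were well under the controls and the shRNA 2 libraries lay within or above their range.

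The class I heavy and light chains were likewise lowest with shRNA 1. H2-K1 had 7150, 7649, 6299 and 7215 normalized reads in the day 11 controls, 4004 and 4247 with shRNA 1 and 7278 and 6384 with shRNA 2. H2-D1 had 21120, 22660, 19500 and 21930 in the controls, 11570 and 11360 with shRNA 1 and 20530 and 18890 with shRNA 2. B2m had 45510, 46940, 41380 and 45940 in the controls, 27160 and 27140 with shRNA 1 and 50610 and 43900 with shRNA 2. In these 3 genes shRNA 1 was separate from control in both libraries and shRNA 2 overlapped it. With shRNA 1 the differences were -0.75, -0.86 and -0.70 (adjusted p = 3.08e-07, 1.21e-08 and 3.97e-07). With shRNA 2 the 95% intervals were -0.20 to 0.10 for H2-K1, -0.24 to 0.03 for H2-D1 and -0.08 to 0.22 for B2m. Between the shRNAs the differences were 0.70, 0.76 and 0.77.

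Psmb8 had 335.1, 347.6, 251.8 and 309.3 normalized reads in the day 11 controls, 147 and 128.3 with shRNA 1 and 358.3 and 293.3 with shRNA 2. Psmb9 had 125.3, 147.6, 95.03 and 116.1 in the controls, 69.4 and 31.8 with shRNA 1 and 218 and 141.3 with shRNA 2. Psmb10 had 1041, 943.7, 813.4 and 832.2 in the controls, 536.1 and 500.8 with shRNA 1 and 899.5 and 806.6 with shRNA 2. The shRNA 1 libraries were the lowest in all 3 subunits, and in Psmb9 replicate 1 of shRNA 2 was above every control. With shRNA 1 the differences were -1.0, -0.97 and -0.75, and shRNA 2 stood above shRNA 1 by 1.05, 1.41 and 0.67. Tap2 (-0.40) and Tapbp (-0.67) were lower with shRNA 1, and shRNA 2 was above shRNA 1 by 0.51 and 0.72. Nlrc5 was the member that fell with both. It had 302.6, 279.4, 295.5 and 265.6 in the controls, 189.9 and 141.9 with shRNA 1 and 242.4 and 179.6 with shRNA 2, all 4 knockdown libraries being under the lowest control. Its differences were -0.68 (adjusted p = 0.000298) and -0.39 (adjusted p = 0.0222), and that between the shRNAs was 0.29 (adjusted p = 0.167).

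Zbtb9 had few reads in these libraries, and its own difference between the shRNAs at day 11 was not called (-0.42, adjusted p = 0.12 in limma). Both libraries labelled shRNA 1 had low class I reads, with Zbtb9 at control level in replicate 2. Both labelled shRNA 2 had class I reads near control, with Zbtb9 at its lowest. The part of the Zbtb9 level in the class I order was not tested. The 10 calls with shRNA 1 were 10 under each of the 17 alternatives run, leaving out replicate 2 among them. Without replicate 1 of shRNA 2, the count with both shRNAs together rose from 1 to 7. Summed adipocyte markers at day 11 were 118300 to 141400 with shRNA 1 and 114400 to 126800 with shRNA 2, against 55070 to 65040 in the controls. Summed preadipocyte and fibroblast markers were 502800 to 579700 with shRNA 1, 634600 to 662200 with shRNA 2 and 619500 to 708200 in the controls, so this list followed the class I order. Its part in the result was not tested.

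The change between days was tested for both shRNAs together and for the gap between them. In limma, the knockdown effect was called different from that of day 0 for 0 of the 10 members at day 3 (6.57% of all genes called), day 7 (29.9%) or day 11 (23.2%), and for 0 between day 7 and day 11 (12.7%). The smallest adjusted p values were 0.197, 0.0537, 0.0621 and 0.278. Members at an unadjusted p under 0.05 numbered 1, 2, 1 and 0, beside 19.9%, 39.5%, 33.8% and 26.2% of all genes, and voom called 0, 1, 1 and 0 members, beside 6.02%, 29.2%, 22.6% and 11.7% of all genes. These fits had 8 groups, with both shRNAs of a day in 1 group. With the shRNAs as separate groups (12 groups), 2, 6, 2 and 1 members were called, beside 18.3%, 42%, 35.8% and 26.1% of all genes. Whether the day 7 effect differed from that of day 0 thus depended on how the shRNAs were grouped. The gap between shRNA 2 and shRNA 1 did change from day 7 to day 11, a contrast added after the data had been seen. It was larger for 9 of the 10 members (3.83% of all genes called higher), by 0.38 for Tap2 (adjusted p = 0.0345) to 1.39 for Psmb8 (adjusted p = 0.00145), with Tap1 at 0.99 (adjusted p = 2.3e-06). Nlrc5 was at 0.73 (adjusted p = 0.0778). The count of 9 became 5 without day 7 replicate 1 of shRNA 1 or day 7 replicate 2 of shRNA 2, 3 without day 11 replicate 2 of shRNA 1, and 4 without day 11 replicate 1 of shRNA 2.

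Across all 32 libraries the members varied together. Pearson's r between their deposited values ran from 0.56 to 0.98 over the 45 pairs, with a median of 0.93. These libraries share days and arms, so the values were also taken as deviations from each group's mean, where r was between 0.11 and 0.90 (median 0.56). B2m followed the mean of the 10 standardised members most closely (r = 0.991) and Psmb10 least (0.801). Among genes that were not members, the closest to that mean over the 32 libraries were Irf7 (r = 0.989), Apol9a (0.988), Apol9b (0.988), H2-Q4 (0.985), Igtp (0.984) and Dhx58 (0.982). Irf7, an interferon regulatory factor, averaged 1587 normalized reads in the day 7 controls, 367.2 with shRNA 1 and 647.4 with shRNA 2. At day 11 it averaged 2111, 505.1 and 2003. The day 11 difference from control was -1.96 with shRNA 1 (adjusted p = 6.18e-10) and -0.08 with shRNA 2 (adjusted p = 0.559), and shRNA 2 stood 1.88 above shRNA 1 (adjusted p = 3.47e-08). Irf7 was picked for its likeness to the members over these same libraries. Its pattern thus follows from that choice, and these tests are no separate support.

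Nearby steps of the pathway were followed in gene lists. Among 8 tested of 14 other class I heavy chains, 7 fell and 1 rose in the day 7 knockdown (median -0.61, beside 0.01 over all genes, of which 22.6% fell). H2-Q4, a Qa-type heavy chain, was lower by the most (-1.38, adjusted p = 9.58e-06), then H2-T24 (-0.87), and Mr1, which presents vitamin metabolites, by less (-0.30). Cd1d1, which presents lipids and is grouped here as a class I-like chain, rose by 0.47 (adjusted p = 0.00121). At day 11, 7 of the 8 fell with shRNA 1 (22.2% of all genes) and 1 with shRNA 2 (19.4%), and 6 were higher with shRNA 2 than with shRNA 1 (11.6%).

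All 3 constitutive catalytic subunits of the proteasome rose in the day 7 knockdown (24.9% of all genes called higher), Psmb7 by 0.40, Psmb5 by 0.34 and Psmb6 by 0.24. Of 11 other subunits of the 20S core, 8 rose and 0 fell, the largest being Psma1 (1.08 ± 0.11, adjusted p = 1.19e-05) and Psma6 (0.61), while 3 were not called, among them Psmb2 (0.00) and Psma7 (-0.05). Of the activators, Psme2 (0.33) and Psme3 (0.30) rose and Psme1 (-0.19) fell. In the control course too, all 3 constitutive catalytic subunits and all 11 other core subunits rose from day 0 to day 3 (38.3% of all genes called higher), while the inducible ones fell.

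Of 7 genes for peptide trimming and folding in the endoplasmic reticulum, 3 fell and 1 rose at day 7, beside 22.6% and 24.9% of all genes. Erap1, the aminopeptidase that trims peptides for class I, fell by 0.36 (adjusted p = 0.000245), Lnpep, an aminopeptidase of endosomes, rose by 0.30 (adjusted p = 0.000956), and the chaperones Hspa5 (-0.04) and Canx (-0.06) were not called. Of 8 genes for proteins that act with NLRC5, 2 fell at day 7, namely Rfx5 (-0.35) and Nfya (-0.33), and 1 rose, a share lower that is close to that of all genes (22.6% lower and 24.9% higher).

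A list of 16 interferon-stimulated genes outside the pathway was followed as well. All 16 fell in the day 7 knockdown (median -1.73; 22.6% of all genes called lower), led by Ifit3 (-3.26 ± 0.40, adjusted p = 0.000611) and Ifit1 (-2.57), antiviral proteins with tetratricopeptide repeats. All 16 also fell from day 0 to day 3 in the controls (median -4.22; 38.2% of all genes called lower) and rose from day 3 to day 7 (median 3.91; 37.6% called higher). At day 11 all 16 fell with shRNA 1 (median -2.15; 22.2% of all genes called lower) and 5 fell with shRNA 2 (median -0.27; 19.4% of all genes). All 16 were higher with shRNA 2 than with shRNA 1 (median 1.94; 11.6% of all genes called higher). Of 18 interferon signalling and class I regulator genes, 12 fell and 1 rose at day 7, beside 22.6% and 24.9% of all genes, led by Irf7 (-1.60) and Stat2 (-1.47), while the receptor chain Ifnar2 (0.01) and the kinase Jak1 (0.04) were not called. The lists were chosen with earlier results known, and their counts describe them without a test of the list. Of 8 interferon ligand genes looked for, only Ifnb1 was among the genes listed. It had 0 to 9 reads per library and was at 0 in 24 of 32. Of 7 MHC class II genes, 5 were in the table: Ciita, the class II transactivator, had 0 to 5 reads per library, the class II chain H2-Ab1 0 to 3, H2-DMb1 1 to 53, Cd74 (the invariant chain) 8 to 179 and H2-DMa 165 to 305. Of the 3 tested, Cd74 fell in the day 7 knockdown (-0.54, adjusted p = 0.0306), with H2-DMa at -0.14 (adjusted p = 0.236) and H2-DMb1 at 0.22 (adjusted p = 0.266). The list summed to 282.4 to 340.6 normalized reads in the day 7 controls, 255.7 to 277.3 with shRNA 1 and 272.7 to 276.7 with shRNA 2, all below the controls, and its part in the class I result was not tested.

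**Figure D3:**
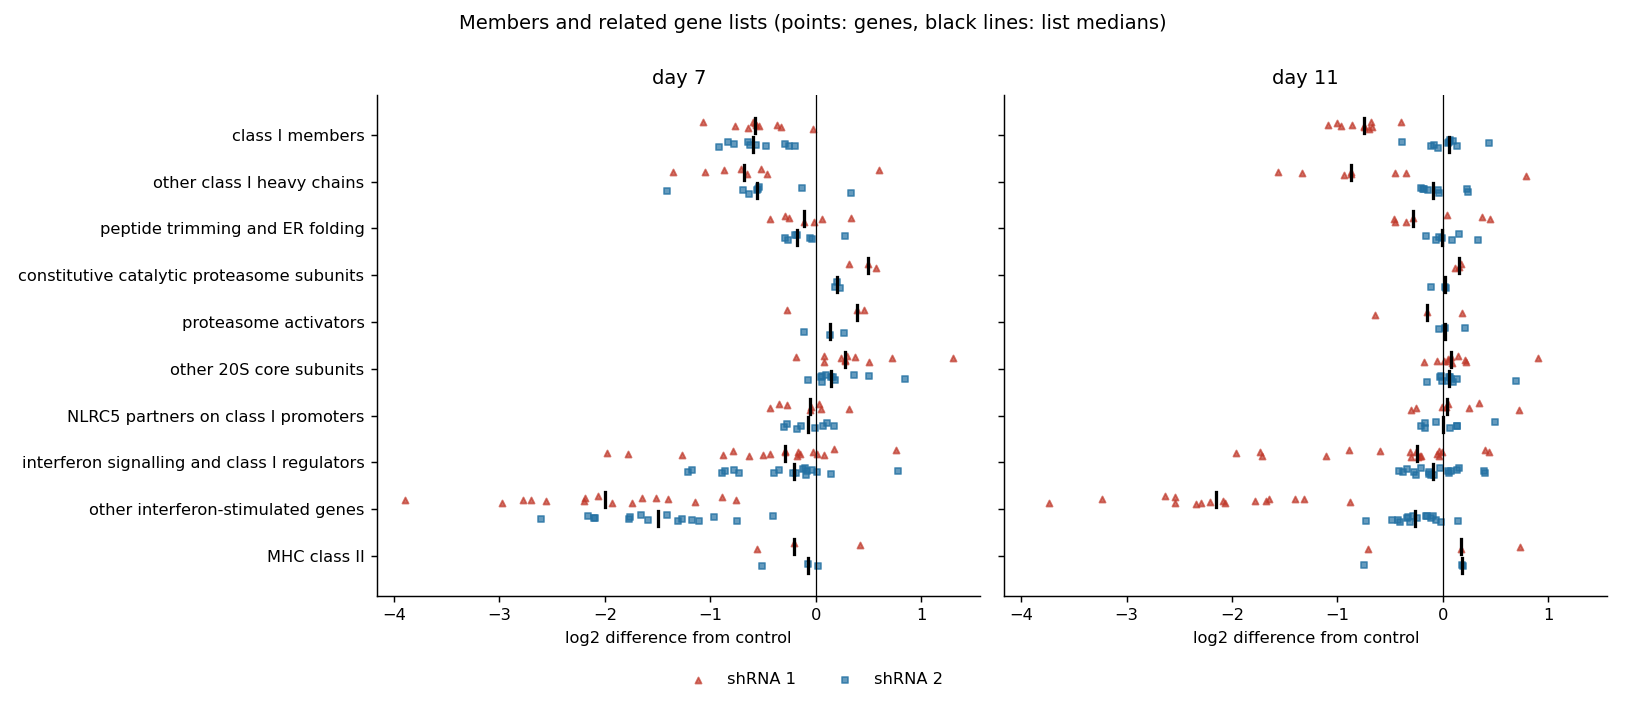
Log2 difference from control with each shRNA at days 7 and 11, for the 10 members and 9 gene lists, with a point per gene and a black line at each list's median. The medians of members, other heavy chains and interferon-stimulated genes lie below 0 with both shRNAs at day 7 and with shRNA 1 at day 11, with Cd1d1 above 0 among the heavy chains, and their shRNA 2 medians at day 11 are nearer to 0.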

How the data were processed

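RNA from 32 libraries was measured by sequencing, with spin-column RNA and TruSeq libraries per the labels' protocols. The submitters' processing notes name TopHat2 2.1.0, Bowtie2 2.2.6, SAMtools 1.3.1 and HTSeq 0.6.1; the genome build, annotation and use of strand are not given in the sources used here. The authors deposited 1 value per gene and library. The values show that these deposited numbers are on a log2 scale (-1.56 to 17.99) with the form of a regularized log transform, which draws low genes towards their mean. No label names this step. Inverting it gave whole reads within 0.1 read for 95.9% of all values (20% by chance) and for 320 of the 320 values of the 10 members. Library totals (22280321 to 31073716) are sums of these reads.

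Genes were kept where 2 to the power of the value reached 10 in at least 4 libraries of a fit. limma 3.58.1 (R 4.3.3) with trend and robust moderation was fitted per day for 4 knockdown against 4 control libraries, per day for 3 groups, over the 16 controls, and over all 32, in 8 groups (knockdown or control by day), for changes between days. Benjamini-Hochberg adjustment ran over all genes tested, with a threshold of 0.05. On simulated data for knockdown against control at each day, 90% to 95% of genes changed by 0.6 (log2) were recovered. Of those changed by 1, 100% were recovered, with 3.94% to 6.4% false calls. The sizes were set for the knockdown as a whole. Recovery where the shRNAs differ, as for Tap1 at day 11 (-1.09 with shRNA 1, 0.13 with shRNA 2), was not tested. Replicates of a group differed by more than sampling noise (chi-square per degree of freedom 3 to 11.8 over 32 pairs).

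Of the table's IDs, 20521 were in the GENCODE M21 annotation of GRCm38, from which locations and exon lengths came. Members, lists, and the rules for named genes (the 2 largest and 2 smallest day 7 differences per list, and the 6 genes most like the members' mean) were chosen with earlier results of these data known. Alternatives were other filters, rescaling, limma without trend and robust moderation, voom, rebuilt reads, other groupings, a replicate block and leaving out each library.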

Additional observations from a re-analysis of the deposited data

Results flagged for a closer look

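In each of 80 groups of 4 libraries (10 genes, 4 days, knockdown or control), the library farthest out was compared with the rest. In 3 groups, all of controls, it stood apart by more than the 95% critical value of Dixon's test, where chance gives about 1 in 20 groups. B2m in day 7 control replicate 2 was below the other controls, at 14.60 on the deposited log2 scale (a gap of 0.860 of the group's range). Tap2 in control replicate 3 was above the others at day 3 (9.56, gap 0.846) and at day 7 (10.87, gap 0.830).

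The gap between shRNA 2 and shRNA 1 grew from day 7 to day 11 in 9 members, by a test of that change in 1 limma fit of 32 libraries. The change was 1.39 for Psmb8, 1.21 for Psmb9 and 0.55 for Psmb10. It was 0.99 for Tap1, 0.38 for Tap2 and 0.47 for Tapbp. For the class I molecule it was 0.77 in H2-K1, 0.94 in H2-D1 and 0.76 in B2m.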

How the results depend on the processing

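Of 3784 values of single members under the alternatives, 3533 kept their direction and their side of the threshold, 161 lost a call, 58 gained one and 32 changed direction, 0 of the last being called. Members lower at day 7 with both shRNAs were 9 in all 19 alternatives, and members lower at day 11 with shRNA 1 were 10 in all 17. Where a value below differs, the cause was not tested. Day 11 with both shRNAs depended on the grouping: 1 member was called, 9 with the shRNAs as separate groups, 9 in 1 fit of all 32 libraries in 12 groups (control or shRNA by day, below 1 fit), and 1 to 7 with a library left out. Psmb8, Psmb9 and Nlrc5 at day 3 rest on few reads, and each shRNA on 2 libraries per day.

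Replicate numbers gave little sign of pairing the libraries. Correlations of the difference between replicates 1 and 2 were -0.00 to 0.21 over 12 pairs of groups, with 1 above 0.1. That 1 was shRNA 1 with control at day 11. Control replicates 3 and 4 were not in this check, so it cannot exclude pairing. With the replicate block, the genes called with both shRNAs numbered 0 at day 0 (430 without it), 845 at day 3 (3506), 4112 at day 7 (6328) and 1652 at day 11 (4382). Under the block the members called were 0 at day 0 and 0 at day 11, and B2m at day 3 turned to 0.03.

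For both shRNAs at day 0, genes called were 261 without trend and robust moderation, 2409 in 1 fit, 3340 with separate shRNAs and 111 to 562 with a library left out. The 1 member called became 0 with no filter, under both rescalings and without trend and robust moderation, 2 in 1 fit, 3 with separate shRNAs and 0 to 0 with a library left out. At day 3, separate shRNAs gave 5311 genes, and the 0 members became 1 without trend and robust moderation, 2 in 1 fit, 3 with separate shRNAs and 0 to 1 with a library left out (1 without shRNA 1 replicate 2, shRNA 2 replicate 2 or control replicate 4). At day 11, 1 fit gave 6792 genes.

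For single shRNAs, 1 fit gave 2 members at day 3 with shRNA 1 (6) and 1 with shRNA 2 (3), and 0 for the difference between them at day 0 (1). That difference at day 7 had 1 member, and 0 with no filter, without trend and robust moderation and in voom, but 2 with a minimum of 50 and under both rescalings. Leaving out a library gave 3 to 6 (shRNA 1, day 3), 4 to 9 (shRNA 1, day 7), 1 to 4 (shRNA 2, day 0), 1 to 3 (shRNA 2, day 3), 4 to 10 (shRNA 2, day 7) and 0 to 2 (shRNA 2, day 11). It gave 1 to 2 for the difference at day 0, 0 to 3 at day 7, and 3 to 10 for its change from day 7 to day 11. The day 7 difference was 0 without any 1 of the 4 knockdown libraries, 3 without control replicate 2 and 2 without control replicate 3.

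For the knockdown effect against day 0, where 0 members were called in 8 groups, 1 fit in 12 groups gave 2 at day 3, 6 at day 7 and 2 at day 11, and 1 for day 11 against day 7. At day 7 it was 1 with a minimum of 50, with equal medians, without trend and robust moderation and in voom, and 2 with equal totals. At day 11 it was 1 under both rescalings and in voom. Leaving out a library gave 0 to 2, 0 to 1 and 0 to 1 for day 7, day 11 and day 11 against day 7, the 2 arising without day 11 replicate 1 of shRNA 2.

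Uncalled values that changed direction were Tap2 at day 0 (0.02 with equal totals, 0.01 with equal medians, -0.06 to 0.05 with a library left out), and B2m in controls at day 7 against day 0 (-0.03 with equal totals, -0.01 to 0.16). With a library left out, Psmb10 at day 0 ran from 0.00 to 0.07. At day 3 H2-K1 ran from -0.02 to 0.13, B2m from -0.05 to 0.08, Tap2 from -0.03 to 0.06 and Psmb9 from -0.02 to 0.18. Psmb9 at day 11 ran from -0.58 to 0.09, the highest without shRNA 1 replicate 2. With shRNA 1, Nlrc5 at day 7 ran from -0.14 to 0.07. With shRNA 2 at day 11, H2-K1 ran from -0.14 to 0.04, B2m from -0.03 to 0.17, Tap2 from -0.03 to 0.23 and Psmb8 from -0.07 to 0.18. Between the shRNAs at day 7, B2m ran from -0.10 to 0.13 and Psmb9 from -0.08 to 0.48. Nlrc5 in controls at day 7 against day 0 ran from -0.18 to 0.05.

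With libraries rescaled to equal totals, the percentage of higher genes among the called ones went from 25.1% to 43.3% at day 0 with both shRNAs, from 42% to 57% with shRNA 2, and from 53.2% to 42.5% at day 7 with shRNA 1. It went from 45.8% to 61.9% between the shRNAs at day 7, from 50.1% to 38.6% for control day 3 against day 0, and from 62.4% to 48.2% for the change of the gap between the shRNAs (50.4% with equal medians). For the knockdown effect against day 0 it went from 56.2% to 42.4% at day 3, from 56% to 40.7% at day 7 and from 53.6% to 40.1% at day 11.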

Other observations

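The genes that ran most nearly opposite to the mean of the 10 members over the 32 libraries were Med22 (r = -0.963), a Mediator subunit, Gpat4 (-0.961), which makes lysophosphatidic acid for glycerolipids, and Srm (-0.958), or spermidine synthase. The libraries share days and arms, so these values are descriptions. Psma1, a 20S core subunit whose level also stood above control at day 11, differed by 0.90 with shRNA 1 and by 0.69 with shRNA 2 there, and the shRNAs differed by -0.21 (adjusted p = 0.0221 in limma), beside 1.05, 1.41 and 0.67 for the inducible subunits Psmb8, Psmb9 and Psmb10. Irf1, a regulator of class I genes, was lower with shRNA 1 at day 11 (-0.21, adjusted p = 0.0398) and higher with shRNA 2 (0.40, adjusted p = 0.000746). Psma1 and Irf1 were singled out after their values had been seen.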
